A study of Canis lupus familiaris with 6 samples.

Results

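SLC6A12, SLC29A1 and SLC22A2 are 3 solute carrier genes followed here on every array of a dog kidney cell experiment, out of 1437 genes that could be named. SLC6A12 and SLC29A1 were chosen by their lower signal with tetracycline, and SLC22A2 by its change between 30 h and 60 h, so those contrasts are given below as descriptions of the 3 genes. All spots carrying a dog RefSeq transcript of these genes were taken: 1 probe for SLC6A12, 2 for SLC29A1 and 1 for SLC22A2, 4 of 43603 probes in all. Both SLC29A1 probes carry the same transcript, and each of the 4 probes is a single spot.

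The cells were MDCK-II, an established line of dog kidney tubule epithelium, carrying a short hairpin RNA against scribble, a scaffold protein of cell polarity, that tetracycline switches on. In this scribKD line cells received tetracycline at 5 µg/ml, starting 6 h after plating, or none, and total RNA was taken 30, 45 and 60 h after that addition. The 6 groups are therefore 1 array each: with tetracycline at 30, 45 and 60 h, and without tetracycline at the same 3 times. Every group, the untreated ones included, carries the hairpin construct, and each array holds RNA of 3 wells mixed before labelling. No array of cells lacking the hairpin was given tetracycline, so the drug and the hairpin cannot be told apart. SCRIB itself had 0 named probes and its knockdown was not analysed here.

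SLC6A12 encodes the betaine and GABA transporter BGT1, first cloned from MDCK cells. It brings betaine in with sodium and chloride, and kidney cells raise it in hypertonic medium through the transcription factor NFAT5 to balance their osmotic pressure. SLC29A1 encodes the equilibrative nucleoside transporter ENT1, which lets adenosine and other nucleosides cross the membrane down their gradient. SLC22A2 encodes the organic cation transporter OCT2, which in the kidney takes up creatinine, metformin and other cations at the basolateral side of proximal tubule cells. The 3 belong to separate transporter families.

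On an array 64.3% to 68.8% of the spots were well above background, 0 were saturated, and any pair of arrays had a correlation between 0.985 and 0.996 over the tested features. Of the kidney tubule epithelium markers 8 of 14 had a named probe and all 8 entered the fit, CDH1 (E-cadherin), OCLN (occludin) and CLDN2 among them, all well above background on 6 arrays. Of other cell types, 3 of 4 fibroblast genes with a probe, 2 of 2 endothelial genes and 1 of 1 leukocyte gene also entered the fit. These too were well above background on 6 arrays, so detection did not set the epithelium markers apart. Levels below are log2 of the processed spot signal minus the array's 75th percentile, and are compared within a probe and not between genes. The error given with a single signal is the scanning program's own estimate for that spot.

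SLC6A12 was lower with tetracycline at each time. Its processed signal was 137.6 ± 14.0 at 30 h, 123.1 ± 12.6 at 45 h and 152.9 ± 15.5 at 60 h with tetracycline, against 264.4 ± 26.7, 259.8 ± 26.1 and 285.1 ± 28.6 without it. All 3 arrays with tetracycline lay below all 3 without it, as they did for 10.2% of tested features, a pattern that the choice of the gene favours. On the log2 scale the levels were -2.21, -2.33 and -1.93 with tetracycline and -1.27, -1.24 and -1.05 without it. The difference, with minus without tetracycline, was -0.93 at 30 h, -1.08 at 45 h and -0.88 at 60 h, each with a spot error of 0.21, so that it was already present at the first time and did not keep to 1 direction afterwards. The mean difference was -0.97 ± 0.08 (SE, 3 pairs of arrays), or 1.95-fold lower with tetracycline. Each SE here and below is the one limma gives, which also draws on the spread of all tested features.

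SLC29A1 was also lower with tetracycline at each time, on the 1 of its 2 probes that was measurable. The signal of that probe was 325.1 ± 32.6, 255.2 ± 25.6 and 246.5 ± 24.8 with tetracycline at 30, 45 and 60 h, against 492.0 ± 49.3, 444.0 ± 44.4 and 493.5 ± 49.4 without it. Here too the arms did not overlap, as for 10.2% of tested features, a pattern that the choice of this gene also favours. The levels were -0.97, -1.28 and -1.24 with tetracycline and -0.38, -0.47 and -0.26 without it. Its difference was -0.59, -0.81 and -0.98 at the 3 times, larger at each later time, which made it 1.50-, 1.75- and 1.97-fold lower with tetracycline. The mean difference was -0.79 ± 0.10 (SE).

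The second SLC29A1 probe was not well above background on any of the 6 arrays. Its signal was 6.06, 4.45 and 3.54 with tetracycline and 7.82, 6.93 and 8.73 without it, with spot errors between 2.48 and 3.64. These readings had the same sign of difference at all 3 times as the bright probe, but the gaps between neighbouring readings were each smaller than their combined error, and no fold is given.

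SLC22A2 had a level that was higher at each later time in both arms. Its signal was 43.5 ± 4.9 at 30 h, 56.4 ± 6.1 at 45 h and 93.7 ± 9.7 at 60 h with tetracycline, and 51.2 ± 5.8, 82.4 ± 8.5 and 150.4 ± 15.2 without it. The lowest array was the one with tetracycline at 30 h and the highest the one without tetracycline at 60 h, and the ranges of the arms overlapped. From 30 h to 60 h the log2 level changed by 1.23 with tetracycline and by 1.67 without it, a mean change of 1.45 ± 0.13 (SE; 2 arrays per time), or 2.74-fold. That value chose SLC22A2 and is a description.

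**Figure D1:**
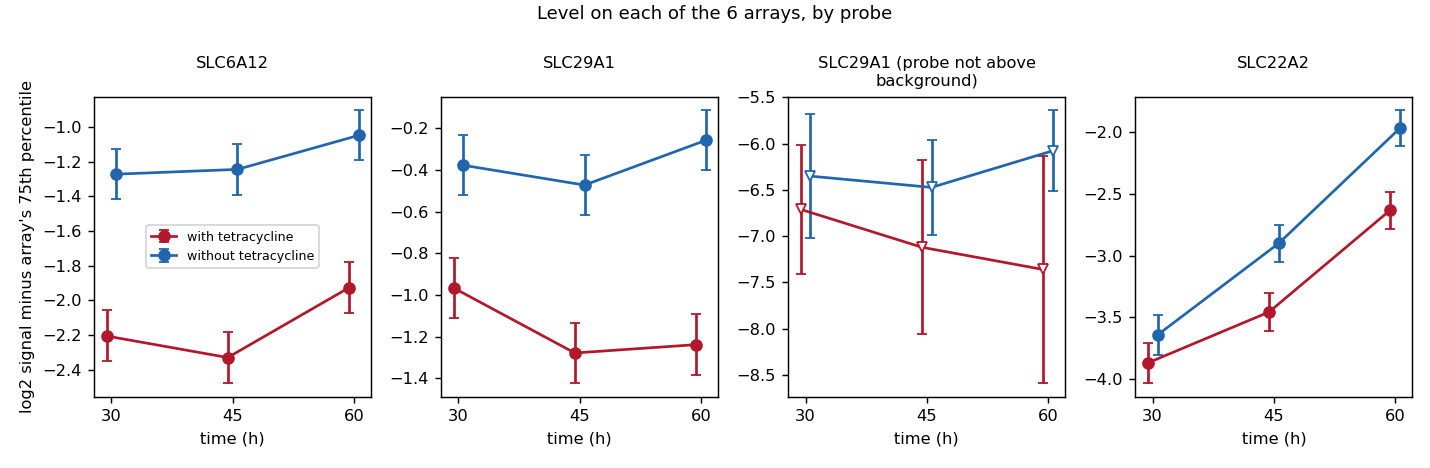
Level of each of the 4 probes on each array, as log2 signal minus the array's 75th percentile (y axis, a separate range per panel) against hours of treatment (x axis), with tetracycline in red and without it in blue. Bars are the scanning program's error of the single spot, and open triangles mark the SLC29A1 probe that was not well above background on any array. SLC6A12 and the bright SLC29A1 probe, of genes chosen by the arm difference, show 2 separated arms, and SLC22A2, chosen by its change over time, climbs in both.

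The order of the 6 levels differed between the genes. For SLC6A12 and SLC29A1, both chosen by the arms, the 3 arrays with tetracycline took the 3 lowest places, as they did for 10.2% of tested features. Within an arm most neighbours differed by less than their combined spot error. The exceptions were 60 h above 30 h with tetracycline for SLC6A12 (a gap of 0.28 against an error of 0.21) and 30 h above 60 h with tetracycline for SLC29A1 (0.27 against 0.20). For SLC22A2 the order ran by time, with the array with tetracycline the lower at each time. The array with tetracycline at 45 h lay 0.19 above the one without it at 30 h, a gap within the combined error of 0.23, and both arrays of 30 h also differed by less than their error. The array with tetracycline at 60 h stood 0.27 above the one without it at 45 h, against an error of 0.21. Spot errors leave out the spread between cultures, which these arrays do not measure.

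Setting the arms side by side compares transcript levels with and without tetracycline in the hairpin line. SLC22A2 was not chosen by this contrast. Its difference was -0.23 at 30 h, -0.55 at 45 h and -0.66 at 60 h, that is 1.17-, 1.47- and 1.58-fold lower with tetracycline, and the first of these was within its spot error of 0.23. The mean difference of SLC22A2 was -0.48 ± 0.11 (SE), with an interval of -0.78 to -0.19 at 95%, and it did not pass (limma, adjusted p = 0.136). An exact sign-flip test over its 3 pairs gave a two-sided p = 0.25, the smallest value that 3 pairs allow. In the whole fit 0 of 27581 features passed an adjusted p of 0.05 for the arms, 0%, while 6432 had an unadjusted p under 0.05. SLC6A12 and SLC29A1 were chosen by this contrast and are given no test on it. With normexp background correction, a setting added after the data were seen, the difference of SLC22A2 was -0.30 (adjusted p = 0.125).

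The 3 genes were lower with tetracycline at all 3 times, as were 21.5% of tested features. Of the 3 genes, 2 were lower by at least 0.58 at each time, as were 0.794% of features. Both counts rest on the contrast that chose SLC6A12 and SLC29A1. The 30 h difference of SLC29A1, -0.59, lay just past that cut, and with normexp correction it was -0.57, short of it. At a single time, with no test, SLC6A12 was at least 2-fold lower at 45 h, where 1.16% of features with both arrays well above background were. None of the 3 genes reached 2-fold at 30 h, where 0.472% of features did, or at 60 h, where 2.48% did. Arm and slide are not tied at 30 h, when both arrays lie on slide 1, or at 60 h, when both lie on slide 2, so the differences at these times are also within-slide values. The 45 h pair spans both slides.

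Whether the difference between the arms moved over time was tested as a slope per 15 h, in a fit with only 1 residual degree of freedom. SLC6A12 had a slope of 0.03 ± 0.09 (SE; interval -0.22 to 0.27, adjusted p = 0.895). SLC29A1 had a slope of -0.20 ± 0.07 (interval -0.39 to 0.00, adjusted p = 0.263) and SLC22A2 one of -0.22 ± 0.08 (interval -0.43 to 0.00, adjusted p = 0.262). None passed in limma, nor did any of the tested features (0%), with 5235 at an unadjusted p under 0.05.

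Time in culture, 60 h minus 30 h over both arms, did not choose SLC6A12 or SLC29A1. SLC6A12 changed by 0.25 ± 0.09 (SE; interval 0.00 to 0.50) and did not pass (limma, adjusted p = 0.160). SLC29A1 changed by -0.08 ± 0.12 (interval -0.41 to 0.25, adjusted p = 0.706). In that comparison 8.15% of features passed, 1087 higher and 1162 lower. The 60 h minus 30 h change of SLC22A2, given above with no test since it chose the gene, was 1.56 with the slide as a further term and 0.89 with normexp correction. Only the 45 h pair spans both slides, so the slide term is set by its arm difference against the other pairs. The 1.56 therefore does not separate time from slide on its own.

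The 30 h pair was on slide 1 and the 60 h pair on slide 2, so every 60 h minus 30 h change was read across slides, in both arms. SLC22A2 was higher at the later time in both steps that stayed on 1 slide, by 0.82 from 45 h to 60 h with tetracycline and by 0.74 from 30 h to 45 h without it. In the steps that crossed slides it was higher by 0.41 from 30 h to 45 h with tetracycline and by 0.93 from 45 h to 60 h without it. Over all probes well above background on both arrays the SD of these steps was 0.30 and 0.27 within a slide, in the same order, and 0.29 and 0.35 across slides. The steps of SLC22A2 within a slide were exceeded by 1.44% of probes with tetracycline and by 1.03% without it, and those across slides by 5.90% with tetracycline and by 1.51% without it. These steps add up to the change that chose SLC22A2, so their place among all probes is a description.

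**Figure D2:**
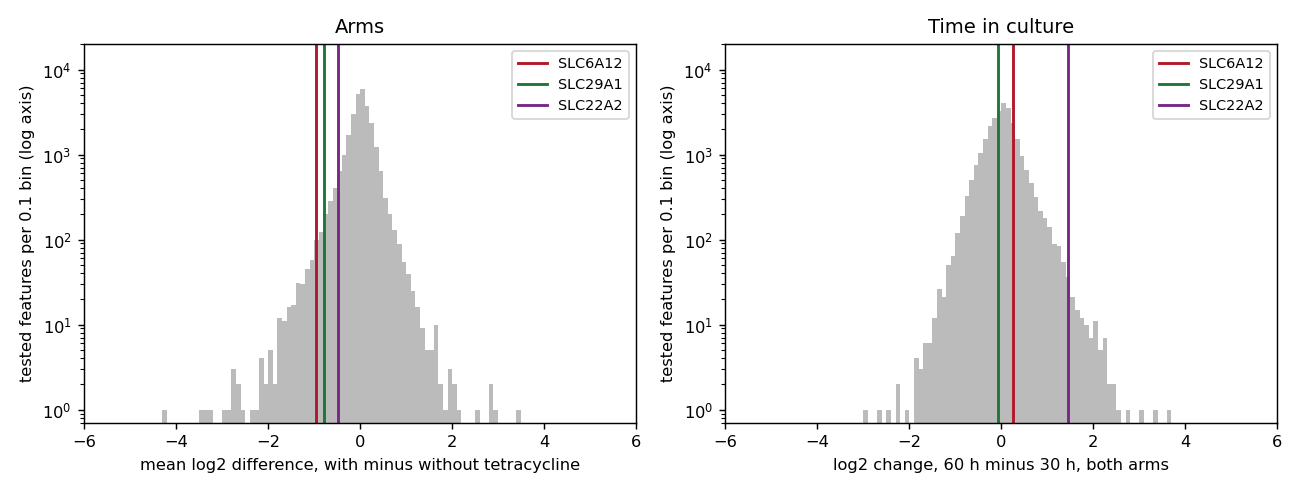
Number of tested features (y axis, log scale) in bins of 0.1 of the mean log2 difference with minus without tetracycline (left) and of the log2 change from 30 h to 60 h (right), with lines at the 3 genes. On the left SLC6A12 (-0.97) and SLC29A1 (-0.79), chosen by that value, lie in the lower tail with SLC22A2 (-0.48) nearer the middle, and on the right SLC22A2 (1.45), chosen by that value, lies in the upper tail with the other two near 0.

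Few genes that work beside SLC6A12 in osmolyte balance could be read, and none passed the test. Of 18 listed genes of osmolyte uptake and tonicity, 6 had a probe and entered the fit, and 0 passed in either direction for the arms or for time. Their median arm difference was -0.18 with SLC6A12 and -0.08 without it, against 0.01 over all features. SLC5A3, which carries the osmolyte myo-inositol, stood at 0.01, 0.28 and 0.67 (mean 0.32, adjusted p = 0.268). HSP70, a chaperone that hypertonicity raises in kidney cells, had a mean difference of -0.27 (adjusted p = 0.174). The water channel AQP1 had a measured mean of 1.54 (adjusted p = 0.166) but was well above background on only 1 of 3 arrays without tetracycline, against 3 of 3 with it. NFAT5, SLC6A6 and AKR1B1 had no named probe.

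Around betaine and GABA little else could be read. Of 18 genes of betaine and one-carbon metabolism only MAT2A, which makes S-adenosylmethionine, was measured, at a mean arm difference of -0.09 (adjusted p = 0.536) and a time change of -0.56 (adjusted p = 0.0502), neither of which passed. Of 10 GABA genes 2 had a probe, GAD1 and GAD2, which make GABA, and neither entered the fit. The 3 other genes of the SLC6 family on the arrays, the monoamine transporters SLC6A2, SLC6A3 and SLC6A4, were not well above background on any array.

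Among nucleoside and adenosine genes SLC29A1 was the only transporter measured. Of 23 listed genes 6 entered the fit, 0 passed for the arms, and the median arm difference was -0.02 with SLC29A1 and 0.00 without it. The adenosine receptor genes ADORA1, ADORA2A and ADORA3 had mean arm differences of 0.00, 0.11 and 0.01, with adjusted p of 0.988, 0.463 and 0.977. ADORA2B, a low-affinity adenosine receptor, had differences of -1.22, 0.74 and -0.90 and was well above background on 2 of 3 arrays with tetracycline and 3 of 3 without it (adjusted p = 0.547). For time, 1 gene of this list fell, TYMS, which makes thymidylate (-0.47, adjusted p = 0.0485), and 0 rose, 1 of 6 against 8.15% of all features. That change was read across slides.

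Of 11 organic cation genes 2 entered the fit, SLC22A2 and ABCB1, and 0 passed for the arms. ABCB1, an apical efflux pump for cationic drugs, was at 0.10, 1.18 and 3.05 at 30, 45 and 60 h (mean 1.44, adjusted p = 0.237), and its time change of 0.84 did not pass (adjusted p = 0.474). No other gene of the SLC22, SLC28, SLC29 or SLC47 families had a named probe. In the list of organic anion and proximal tubule uptake 4 of 15 genes entered the fit, with 0 passing for the arms and a median difference of 0.01. CUBN, a proximal tubule receptor for filtered proteins, rose with time by 0.99 (adjusted p = 0.0471), read across slides, the 1 call among its 4 tested genes, against 8.15% of all features. Its arm differences were 0.16, -0.04 and -0.47. The anion pump gene ABCC2 had a mean arm difference of -0.40 (adjusted p = 0.147), the efflux pump gene ABCC4 one of 0.13 and the sodium glucose carrier SLC5A2 one of 0.19. SLC5A2 changed with time by -0.17 (adjusted p = 0.336).

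As markers of tubule segments, 3 of 4 tested genes of the distal tubule and collecting duct were lower with tetracycline at all 3 times, against 21.5% of all tested features (28% were higher). These were FXYD2, CA2 and KCNJ16, at means of -1.03, -1.06 and -0.93. None passed (adjusted p = 0.194, 0.155 and 0.135), AQP2 stood at -0.08, and the list median was -0.98. The summed level of the 4 genes ranged from 50.5 to 105.3 over the arrays with tetracycline and from 135.3 to 172.8 over those without it, each level being the signal over the 75th percentile of the array. That sum is mostly the bright CA2 probe, with log2 levels of 5.59 to 7.36 where FXYD2 reached at most 3.09. It is therefore no measure of the list as a set. Of the 3 tested proximal tubule markers 0 were lower at all 3 times and 2 were higher, AQP1 and SLC5A2, with 0 passing and a list median of 0.19. The proximal sums overlapped, at 1.05 to 1.55 with tetracycline and 0.87 to 2.11 without it. Of the 8 tubule epithelium markers 4 were lower with tetracycline at all 3 times, MUC1 (-0.55), TJP1 (-0.26), CGN (-0.26) and KRT19 (-0.25), and 1 was higher, OCLN (0.13), with 0 passing and a list median of -0.25. The rest changed sign between times. CLDN2 had the lowest mean of the list, -0.65, with 0.06, -0.38 and -1.64 at 30, 45 and 60 h. CDH1 had the highest, 0.19, with -0.01, 0.07 and 0.51, and CLDN3 had a mean of -0.06. The summed level of the 8 epithelium markers ranged from 113.4 to 125.2 with tetracycline and from 140.1 to 143.1 without it, for the larger part from KRT19 (log2 level 6.12 to 6.50). This sum too is no measure of the list as a set. Among single tested features, 10.2% had all 3 arrays with tetracycline below all 3 without it. The fibroblast markers had sums of 2.41 to 2.54 with tetracycline and 2.20 to 2.55 without it, mostly from COL1A2 (mean arm difference 0.02). COL1A1 stood at 0.59 (adjusted p = 0.134), and DCN was not well above background on any array. The part of these genes in the SLC6A12 and SLC29A1 levels was not tested, and fewer cells of a type and less RNA per cell cannot be told apart in such samples.

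Of 50 named symbols beginning with SLC or SLCO, 36 entered the fit, 2 of which, SLC9A3R1 and SLC9A3R2, are scaffold proteins under an older symbol. For the arms 0 passed. At all 3 times 12 were lower and 9 higher, with a median difference of -0.03, against 0.01 over all features, and without the 3 genes described here 9 were lower and 9 higher (median -0.01 over 33). Over all tested features 21.5% were lower and 28% higher at all 3 times. SLC6A12 and SLC29A1 had the 2 lowest means of the 36, as their choice would have it. SLC23A1, an ascorbate carrier, followed at -0.71 (adjusted p = 0.131), with -0.39, -0.65 and -1.08 at the 3 times. The cystine carrier SLC7A11 stood at the other end at a mean of 0.73 (adjusted p = 0.408), with -0.48, 0.73 and 1.94 at 30, 45 and 60 h. For time, of the 33 without these 3 genes, 0 rose and 3 fell, against 8.15% of all features called in either direction. The 3 that fell, named after their values were seen, were the zinc carriers SLC39A6 (-0.71) and SLC39A7 (-0.66) and the nucleotide sugar carrier SLC35B4 (-0.53), at adjusted p of 0.0364, 0.0377 and 0.0494. These changes too were read across slides. The mitochondrial carrier SLC25A27 changed by 1.04 (adjusted p = 0.0667), and SLC2A9, a urate carrier, by 1.42 (adjusted p = 0.333) with 1 of 3 arrays well above background with tetracycline and 3 of 3 without it.

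**Figure D3:**
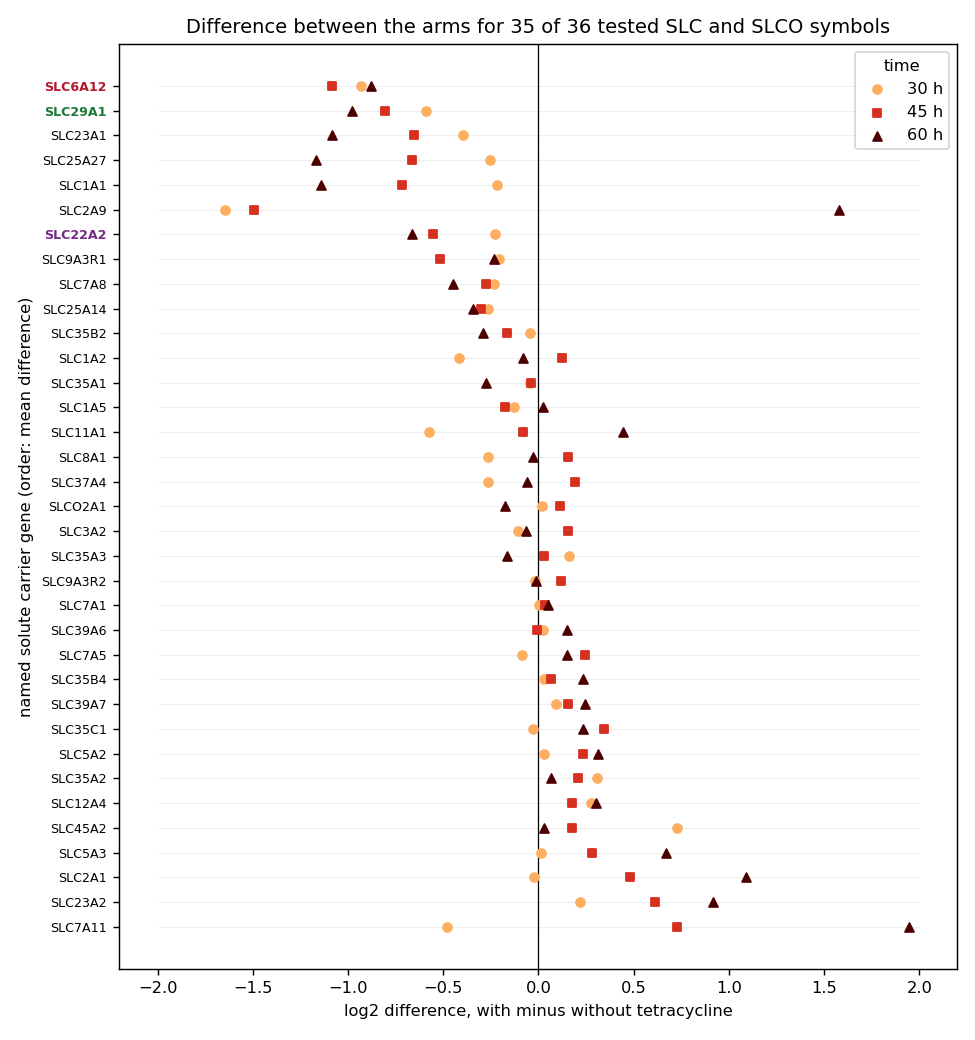
Log2 difference with minus without tetracycline (x axis) at 30, 45 and 60 h for 35 of the 36 tested SLC and SLCO symbols (y axis, ordered by the mean). SLC6A12, SLC29A1 and SLC22A2 are in coloured bold, with SLC6A12 and SLC29A1 at the top and all 3 points below 0, and SLC2A9, whose points spread most, was well above background on 1 of 3 arrays with tetracycline.

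Likeness of pattern was measured as Pearson's r of the log2 level over the 6 arrays, against 997 other named genes in the fit. The arrays share the arms, times and slides, so these values are descriptions. SLC6A12 and SLC29A1 correlated with each other at 0.935, SLC6A12 and SLC22A2 at 0.560, and SLC29A1 and SLC22A2 at 0.334. SLC6A12 and SLC29A1 were both chosen by the arms on these arrays and SLC22A2 by time. That choice favours a high value for the first pair and lower values for the others. SLC6A12 was most like UNK, a zinc finger RNA-binding protein (0.992), SLC25A14, a mitochondrial carrier (0.982), MUC1, an apical mucin (0.978), and CHST4, a sulfotransferase (0.976). The lowest values were those of the Golgi protein gene TVP23B (-0.985) and the translocon subunit SEC61B (-0.976). An r above 0.9 was reached by 23 genes.

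SLC29A1 was most like ATP1B1, the beta subunit of the sodium pump (0.984), the chemokines CCL8 (0.981) and CCL20 (0.980), and the signal peptidase subunit SEC11A (0.978), and 40 genes exceeded 0.9. These 4 differ in size, ATP1B1 having a mean arm difference of -0.26 and CCL8 one of -2.74. Its lowest values were with the lipid kinase PIP5K1A (-0.991) and the endoplasmic reticulum selenoprotein SELENOK (-0.976). SLC22A2 was most like ANXA4, a calcium-binding annexin (0.993), AMT, an enzyme of glycine cleavage (0.987), the pantetheinase VNN1 (0.987) and adrenomedullin, ADM (0.986), with 48 genes above 0.9. ZNF622 (-0.997) and the chaperone CANX (-0.996) lay at the other end.

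**Figure D4:**
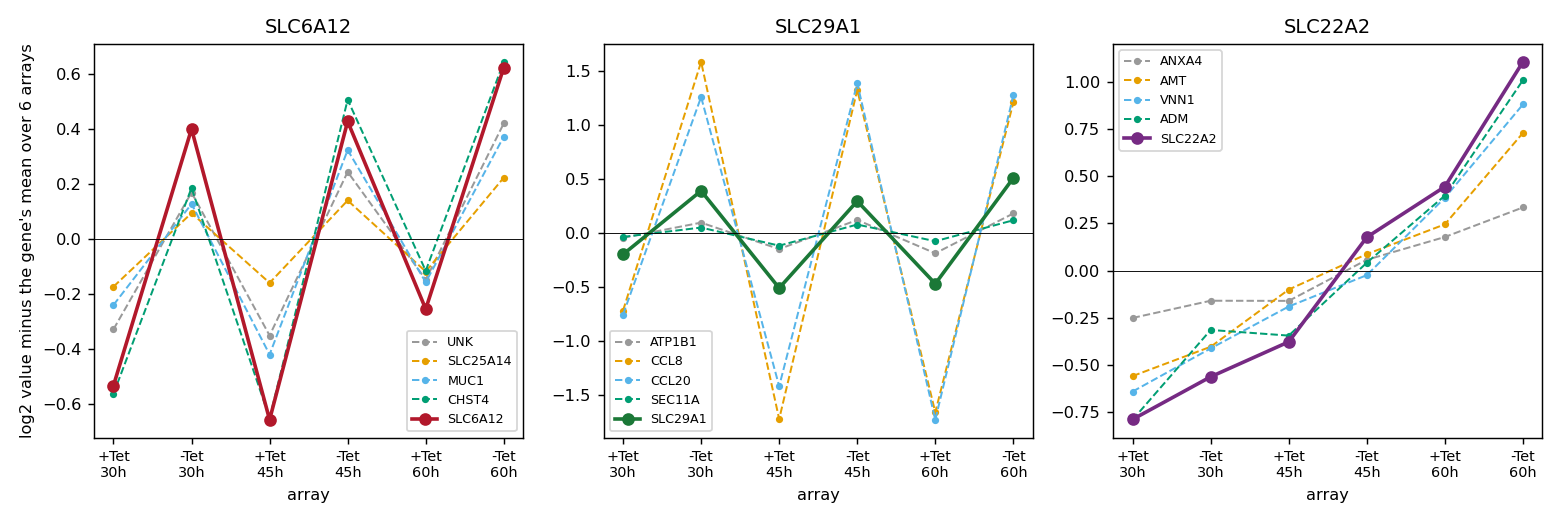
Log2 level minus the gene's own mean over the 6 arrays (y axis) for each of the 3 genes (thick line) and the 4 named genes most like it (dashed lines), by array (x axis, +Tet with and -Tet without tetracycline). The SLC6A12 and SLC29A1 panels alternate with the arm, and the SLC22A2 panel climbs from 30 h to 60 h.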

How the data were processed

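Total RNA of MDCK-II cells was labelled with Cy3 and hybridised to 6 one-colour arrays, 1 per arm and time, each of 3 mixed wells, per the labels. The deposited scanner files hold linear spot intensity from Agilent Feature Extraction 11.5.1.1, per the file headers and the submitters' processing notes, background-subtracted and spatially detrended, not yet normalized across arrays. The value table deposited with the series holds this intensity times 1 factor per array (2.30 to 2.62), found by comparing both.

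From these, log2 of the processed signal less the 75th percentile of the array over 43803 non-control spots was computed here. Spots with an outlier mark were left out, spots of a probe averaged, and probes named by unversioned accession in a RefSeq table of another assembly (2326 of 43603 probes). Features well above background on 3 arrays of an arm were fitted, a gene by its brightest probe (limma 3.58.1, R 4.3.3; Benjamini-Hochberg over 27581 features), with arm and time as terms, 2 residual and 2.37 prior degrees of freedom. The slope fit also let the arm difference move with time, which left 1 residual and 2.77 prior degrees of freedom. Tests were checked on simulated data. P-values measure the spread over times, not between cultures. The planned normexp used median spot signal (offset 50), chosen after seeing the data.

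The genes and lists were chosen with earlier results of these data known. Named are the 3 genes, list members by size of change (up to 4 per list for arm and for time), related families, and per gene the 4 most and 2 least alike. Alternatives were quantile and median scaling, series matrix, detection filters, mean of probes, trended and robust prior, slide, no time term, and pairs left out. 1 gene of the lists is counted but not reported here.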

Additional observations from a re-analysis of the deposited data

Results flagged for a closer look

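SLC29A1 changed in opposite directions in the arms between 30 h and 60 h on its bright probe, by -0.27 with tetracycline and by 0.12 without it, with 1 array per arm and time. The second of these lies within its combined spot error of 0.20, and both changes were read across slides. The slope of its difference between the arms, which is the test of this, was -0.20 per 15 h and did not pass (limma, adjusted p = 0.263).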

How the results depend on the processing

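Over 18 results and 132 comparisons with another setting, 0 tested values turned direction. In many of these the estimate could not change, only its adjusted p, as with the detection filters, the trended prior or no time term. The same holds for time and slope without the 45 h pair, and for the slope with the slide term. For the arm difference, the slide term and leaving out the 45 h pair gave the same fit. Kept direction in such settings is therefore no sign of stability. In 118 of the 132 comparisons a tested value kept its direction and side of the threshold, or an untested one moved by less than its standard error or residual spread, whatever its proportion. Normexp background correction gave arm differences of -0.72 for SLC6A12 and -0.72 for SLC29A1. It gave single-time differences of -0.68, -0.84 and -0.66 for SLC6A12 and of -0.10, -0.34 and -0.47 for SLC22A2 at 30, 45 and 60 h, and time changes of 0.89 for SLC22A2 and 0.16 for SLC6A12. The cause was not tested, though the added offset of 50 shrinks folds of dim spots by construction. The time change of SLC22A2 was 1.45 with no detection filter and without the 45 h pair, and 1.56 with the slide term, and its adjusted p, not used here because that change chose the gene, left the threshold in all 3. Other values that moved by over 1.5 times were the SLC6A12 time change with the slide term (0.43), its slope with median scaling (0.06) and normexp (0.01), the SLC29A1 time change with median scaling (-0.15) and the mean of its probes (-0.13), and the SLC29A1 slope with that mean (-0.33). With pairs left out, the slope lay between -0.15 and 0.21 for SLC6A12 (below 0 without the 60 h pair) and between -0.33 and -0.11 for SLC22A2, values with no residual degrees of freedom and no test. Adjusted p for the arm difference of SLC22A2 ranged from 0.0698 to 0.714.

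Counts past the threshold for the arms were 0 here, 135 with normexp, 16 with a trended, robust prior, 17 with no time term and 1 without the 30 h pair. For time they were 2249 here, 4125 with normexp, 3771 with that prior, and 0 with the slide term, without the 45 h pair or with no detection filter. For the slope they were 0 here, 191 with median scaling, 1753 with normexp, 1797 with that prior and 2 among features detected on all 6 arrays. The 60 h minus 30 h change could not be had without the 30 h or 60 h pair. Without replicate arrays of a condition, no difference here carries an error between cultures.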
